A study of Homo sapiens with 34 samples.

Results

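Androgen was added back to VCaP cells that had been deprived of steroid hormones on a calcium-coated surface, and the transcripts of the treated cells were compared with those of the deprived cells. The comparison used 4 of the 34 libraries of the study, chosen by their labels: 2 libraries of cells on ACP, the labels' name for the calcium coating, in medium with charcoal-dextran-stripped serum, and 2 libraries of cells on ACP in the same stripped medium with androgen. The sample titles call the androgen DHT and the treatment labels call it testosterone, both at a labelled 100 mM, so it is called androgen here and its dose is given only as labelled. VCaP is an established line of prostate carcinoma from a bone metastasis, grown as 1 line throughout, and all 4 cultures were harvested on day 4 with 1 change of medium on day 2. VCaP in control medium on ACP (2 libraries), where the serum was not stripped, is given beside the results as a level and is not 1 of the compared groups. The spread behind the tests was estimated from a fit of all 9 VCaP libraries in 5 groups, those in control medium and on plastic included. The group on plastic in stripped serum had only 1 library and so added nothing to that estimate. The wider study grew RWPE, LNCaP, VCaP and MDAPCa2a prostate cells on plastic or ACP, and androgen was also added on ACP to LNCaP, a line from a lymph node metastasis, and to MDAPCa2a, a line from a bone metastasis (2 libraries a group). The labels number the replicates without saying that they were separate cultures, so p-values here measure only the spread between the libraries of each fit.

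Androgens act by binding a nuclear receptor that moves onto DNA and changes the transcription of nearby genes. In luminal prostate epithelium this keeps up the secretion of kallikreins and other seminal fluid proteins, along with the lipid, polyamine and glycoprotein synthesis that secretion needs, and it holds other transcripts down. VCaP cells carry a fusion that places the ETS factor gene ERG under the androgen-responsive promoter of TMPRSS2, so that ERG itself is under androgen control in this line. Charcoal removes steroids from serum, and adding androgen back returns 1 class of the hormones that were removed.

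The 4 libraries held 21016580, 23696219, 23663452 and 23715150 gene-assigned reads (stripped replicates 1 and 2, then androgen replicates 1 and 2). Levels are given as CPM, reads scaled to a fixed library total after TMM scaling. Log2 CPM correlated across genes at Pearson's r of 0.967 between the stripped libraries and 0.975 between the androgen libraries, a description over genes that are not independent replicates. Chi-square per gene was 67.7 and 55.2 in these pairs, so neither pair was a copy of 1 library. Of the 11 luminal prostate markers, all had reads in each of the 4 libraries, and their summed level ran from 5171 to 9700 CPM. HOXB13 and FOXA1, factors that define prostate epithelium, were at 883 and 663 CPM in stripped serum and 646 and 579 CPM with androgen and at 801 and 816 CPM in stripped serum and 794 and 544 CPM with androgen, and neither difference passed the test.

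Among 15614 genes with enough reads to test, 2727 (17.5%) differed between androgen and stripped serum at an adjusted p below 0.05, by edgeR's quasi-likelihood test with Benjamini-Hochberg adjustment. Of these, 1353 (8.67% of the genes tested) rose with androgen and 1374 (8.8%) fell. The median change of genes that rose was 1.26 on the log2 scale and that of genes that fell was -1.65. Changes of at least 4-fold (log2 of 2) were seen in 317 genes that rose and 511 that fell. The median over all genes tested was -0.03. Both androgen libraries lay above both stripped libraries in 4669 genes (29.9%) and below them in 4892 (31.3%). The number of calls moved with the libraries kept: without stripped replicate 1 it was 891, without stripped replicate 2 2318, without androgen replicate 1 1334 and without androgen replicate 2 766. A fit of all 34 libraries, which shares 1 estimate of the spread over all lines, called 4545 genes. Of 119 genes chosen by a rule of size and listed membership, 57 passed the threshold whichever 1 of the 4 libraries was left out, and where another of them is described below, the libraries on which its call rested are named with the highest adjusted p without 1 of them. Counts of list members with 1 library left out are given in the order stripped replicate 1, stripped replicate 2, androgen replicate 1 and androgen replicate 2. Each count of list members that rose or fell is to be set against the 8.67% and 8.8% of all genes tested. For list members outside the 119, losses with 1 library left out were followed mainly as counts over the list. Every adjusted p below is from edgeR's quasi-likelihood test, every ± is a standard error with 2 libraries a group, and every log2 fold change is androgen against stripped serum.

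**Figure D1:**
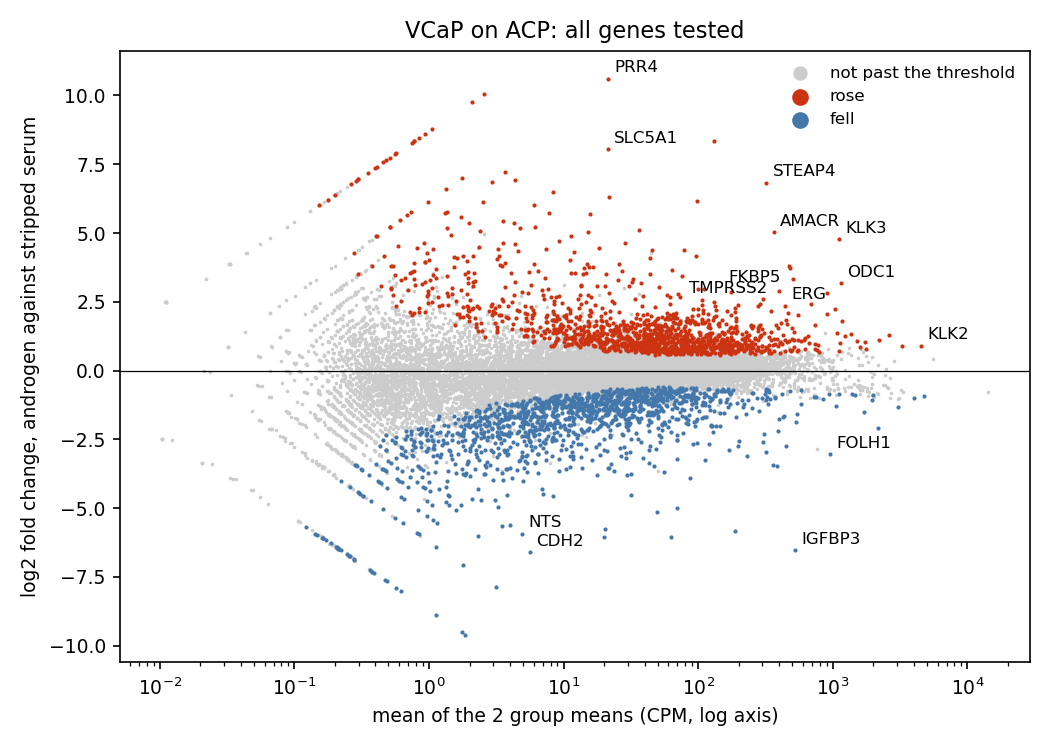
Each point is 1 gene tested in VCaP on ACP, with the mean of both group means (CPM, log axis) on the x axis and the log2 fold change of androgen against stripped serum on the y axis. Red points rose and blue points fell at an adjusted p below 0.05, grey points did not pass, and the diagonal lines of points at low CPM are genes with 0 reads in 1 group. The 1353 red points and 1374 blue points spread over levels from below 1 CPM to those of the most abundant transcripts, with KLK3, STEAP4 and AMACR labelled high above 0 and IGFBP3 and FOLH1 far below it.

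The kallikreins KLK3 and KLK2, serine proteases of seminal fluid that lie next to each other in the genome, both rose, by very different amounts. KLK3, which encodes prostate-specific antigen, was at 36.4 and 121 CPM in stripped serum and 3465 and 853 CPM with androgen (log2 fold change 4.77 ± 0.74, adjusted p 0.00384), a 27.4-fold rise. Both androgen libraries were far above both stripped libraries, yet they differed from each other by more than the stripped pair did in absolute level. KLK2 was at 3013 and 3252 CPM in stripped serum and 6686 and 5089 CPM with androgen (log2 fold change 0.91 ± 0.25, adjusted p 0.0334), so a transcript that was already abundant without added hormone rose 1.88-fold. Control medium held KLK3 at 85.2 and 101 CPM and KLK2 at 3818 and 4111 CPM, below both androgen libraries for each gene. The call of KLK2 was lost without any 1 of the 4 libraries (adjusted p 0.151).

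The 250 bases upstream of the annotated starts of both genes are shown because the pair shares a promoter element while its members differ in response. The sequences are from RefSeq on GRCh38.p14, plus strand, KLK3 at chr19:50854665-50854914 and KLK2 at chr19:50873189-50873438, while the submitters' processing notes name the build hg19. Capitals mark the letters GAACAGCAAGTGCT, which were cut from the KLK3 sequence itself at the place of its 6-base element AGAACA. In KLK3 the A before them, which completes AGAACA, is also in capitals.
KLK3: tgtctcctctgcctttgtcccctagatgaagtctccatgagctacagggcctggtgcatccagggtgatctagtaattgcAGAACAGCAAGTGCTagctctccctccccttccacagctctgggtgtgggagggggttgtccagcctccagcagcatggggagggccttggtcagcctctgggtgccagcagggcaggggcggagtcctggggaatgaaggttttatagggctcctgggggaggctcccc
KLK2: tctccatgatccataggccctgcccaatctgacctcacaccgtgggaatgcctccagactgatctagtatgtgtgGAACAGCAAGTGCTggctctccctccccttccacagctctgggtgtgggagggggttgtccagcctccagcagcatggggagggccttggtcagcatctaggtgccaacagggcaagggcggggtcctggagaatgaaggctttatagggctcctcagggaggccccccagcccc
The capitals start at 170 bases upstream of the start in KLK3 and at 175 bases in KLK2. Over 241 aligned bases the windows were identical at 205 (85.1%). In a search of both strands of 35116 promoters of 300 bases (250 before and 50 after the start), GAACAGCAAGTGCT was found in those of 2 genes, KLK3 and KLK2. The match in KLK3 was fixed by the choice of letters. The KLK2 window is largely identical to that of KLK3, so the search was no test of specificity. The 6-base element AGAACA was in the promoters of 4 of 23 matched members of the androgen-induced list that rose (17.4%), against 9.31% of 11427 matched genes tested and 14.8% of all promoters in the table. It was also in 2 of the 8 matched promoters among the 10 largest falls (25%) and in 1 of the 7 matched among the 10 largest rises (14.3%). The longer palindromic element, GNACA and TGTNC with 3 bases of any kind between them, was in 1 of those 23 and in 0.219% of the genes tested. A match is a run of letters and was not tested as a binding site.

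Of the 20 tested secretory products of prostate epithelium, 8 rose and 0 fell, against 8.67% that rose and 8.8% that fell among all genes tested. The median change of the list was 0.97 on the log2 scale, and 13 of its 20 members had both androgen libraries above both stripped libraries, against 29.9% of all genes. PGC, the pepsinogen progastricsin, went from near absence to a moderate level: 0.345 and 0.703 CPM in stripped serum and 40.0 and 45.1 CPM with androgen (log2 fold change 6.31 ± 0.69, adjusted p 0.00104). ORM2, an acute-phase glycoprotein whose reads can be shared with its near-identical neighbour ORM1, was at 0.0984 and 0.207 CPM in stripped serum and 11.4 and 2.62 CPM with androgen (log2 fold change 5.45 ± 0.90, adjusted p 0.00489). MSMB, a seminal plasma protein, was at 2.12 and 2.81 CPM in stripped serum and 23.2 and 5.69 CPM with androgen (2.54 ± 0.66, adjusted p 0.0271). NPY, a secreted neuropeptide made by prostate epithelium, was at 275 and 432 CPM in stripped serum and 1333 and 894 CPM with androgen (1.65 ± 0.44, adjusted p 0.0313). The 4 secreted products above had both androgen libraries above both stripped ones. For ORM2 and MSMB the first androgen library was about as far above the second as it was for KLK3. Leaving out stripped replicate 1, stripped replicate 2, androgen replicate 1 or androgen replicate 2 left 4, 5, 3 and 6 members that rose. Without androgen replicate 1 the 3 left were KLK3, PGC and ORM2, so the calls of MSMB and NPY were lost. 

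The wider list of transcripts known to be induced by androgen in prostate lines held 49 tested members. Of these, 28 rose and 0 fell, against 8.67% that rose and 8.8% that fell among all genes tested. A positive change was seen in 45, and the median change was 1.28. Both androgen libraries were above both stripped libraries in 38 members, against 29.9% of all genes tested. The largest rise was STEAP4, a metalloreductase, at 3.84 and 7.24 CPM in stripped serum and 836 and 433 CPM with androgen (log2 fold change 6.83 ± 1.19, adjusted p 0.00611), 114-fold. NCAPD3, a condensin subunit, was at 54.8 and 82.0 CPM in stripped serum and 1356 and 444 CPM with androgen (log2 fold change 3.72 ± 0.53, adjusted p 0.00284). FKBP5, a co-chaperone of steroid receptors, was at 63.1 and 122 CPM in stripped serum and 1059.8 and 779 CPM with androgen (log2 fold change 3.31 ± 0.35, adjusted p 0.000974). In FKBP5 the androgen libraries differed by less than 1.5-fold while both lay over 6 times above either stripped library. HERC3, a ubiquitin ligase, STK39, a kinase that acts on ion cotransporters, and CENPN, a kinetochore protein, rose by log2 2.97 ± 0.31 (adjusted p 0.000953), 2.36 ± 0.20 (adjusted p 0.000372) and 2.10 ± 0.30 (adjusted p 0.0029). SPDEF, an ETS factor of secretory epithelium, rose from 345 and 353 to 907 and 589 CPM (log2 fold change 1.10 ± 0.27, adjusted p 0.0218), and PMEPA1, which restrains TGF-beta signalling, from 879.8 and 619 to 1622 and 1389 CPM (log2 fold change 1.01 ± 0.25, adjusted p 0.0224). These 2 show the smaller, roughly 2-fold end of the list. Of the members that did not pass, 21 in all, none passed in the other direction. Without stripped replicate 1, stripped replicate 2, androgen replicate 1 or androgen replicate 2, 17, 23, 19 and 24 members rose. Of these calls, some were lost with 1 library fewer: that of STEAP4 without stripped replicate 1 (adjusted p 0.0632) and that of SPDEF without stripped replicate 1 or 2 or androgen replicate 1 (adjusted p 0.115).

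Androgens and glucocorticoids induce an overlapping set of genes. Of 23 tested genes of that set 6 rose and 1 fell (median 0.78), against 8.67% and 8.8% of all genes tested. Besides FKBP5, HOMER2, a synaptic scaffold protein, was at 79.9 and 93.0 CPM in stripped serum and 545 and 500.0 CPM with androgen (log2 fold change 2.60 ± 0.19, adjusted p 0.000282), with little spread inside either group. ERRFI1, a feedback inhibitor of EGF receptors, was at 40.1 and 41.8 CPM in stripped serum and 203 and 149 CPM with androgen (log2 fold change 2.10 ± 0.22, adjusted p 0.000943). SGK3, a kinase of the phosphoinositide pathway, ZBTB16, a zinc finger repressor, and the clock gene PER1 rose by log2 2.02 ± 0.62 (adjusted p 0.0489), 1.21 ± 0.37 (adjusted p 0.0498) and 1.19 ± 0.32 (adjusted p 0.0306). KLF9, a zinc finger factor, fell from 11.1 and 8.56 to 3.05 and 2.98 CPM (log2 fold change -1.70 ± 0.30, adjusted p 0.00639). The other 16 members did not pass, 17 of the 23 had a positive change, and 12 had both androgen libraries above both stripped libraries, against 29.9% of all genes tested. With 1 library left out 4, 4, 3 and 3 rose. Without androgen replicate 1 or androgen replicate 2 the 3 left were FKBP5, HOMER2 and ERRFI1, so the calls of SGK3, ZBTB16 and PER1 were lost. The call of KLF9 was lost without androgen replicate 2 (adjusted p 0.0502).

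**Figure D2:**
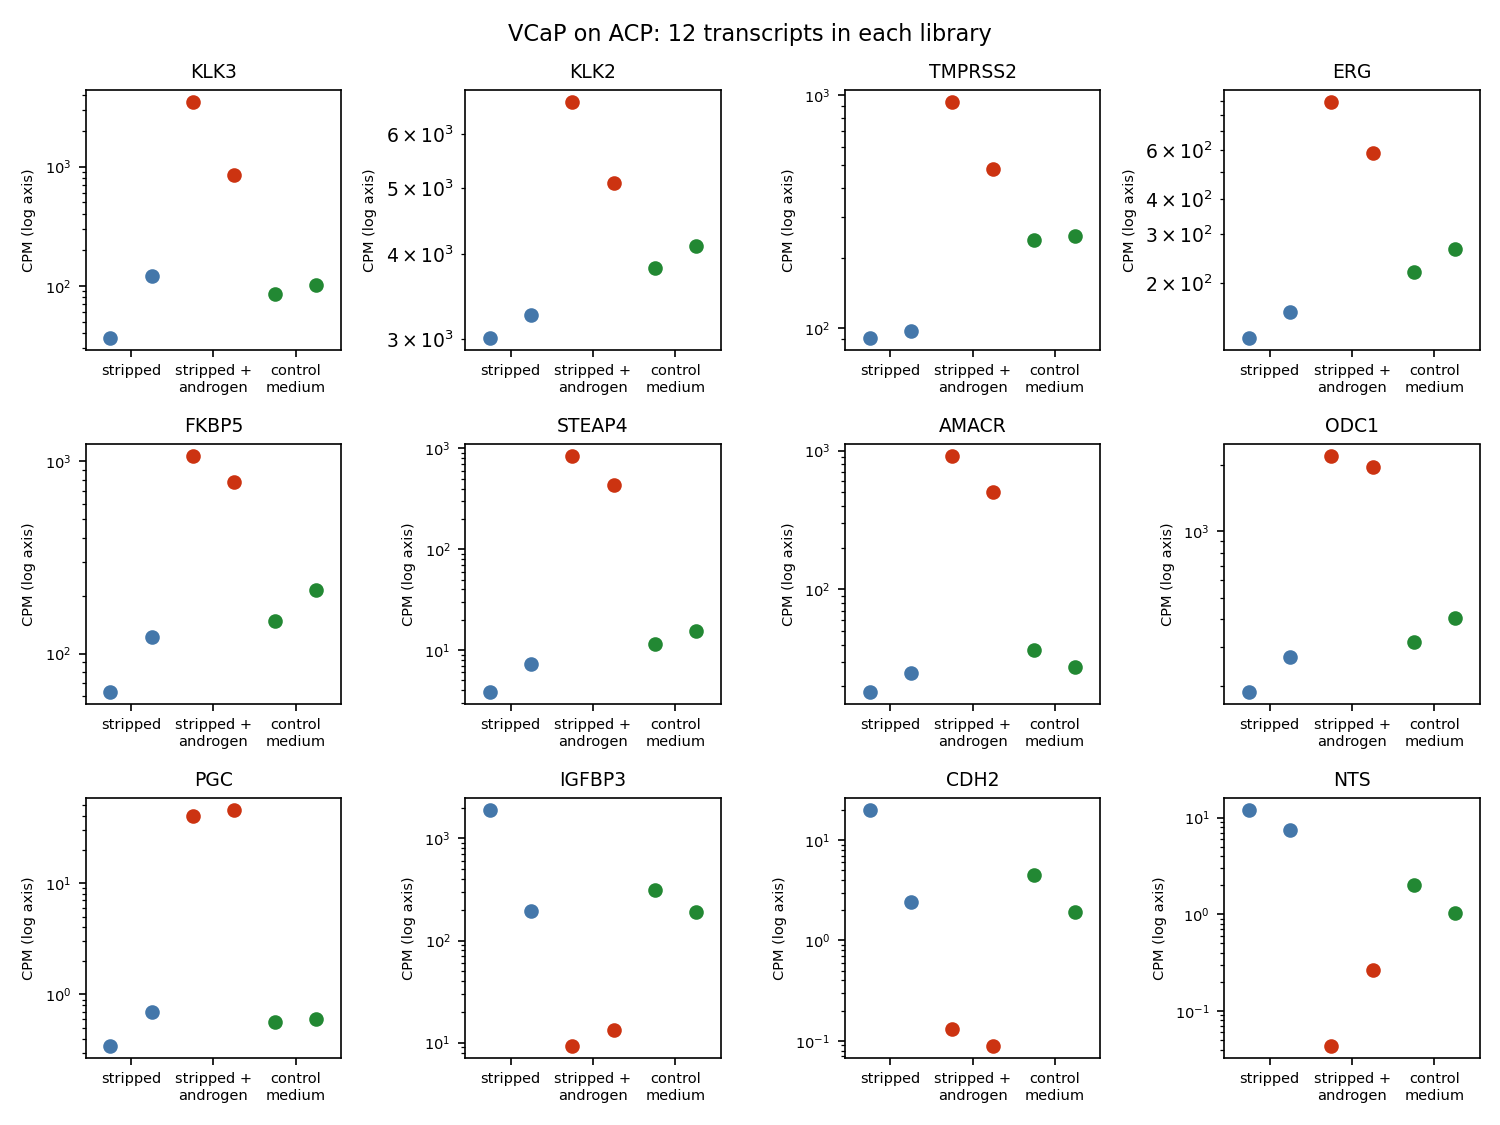
CPM of 12 transcripts (log axis, scaled for each panel) in the 2 libraries of each ACP group of VCaP, with stripped serum in blue, stripped serum with androgen in red and control medium in green. The red and blue points do not overlap in any of the 12 panels, which was a condition of choice for STEAP4, PGC, IGFBP3, CDH2 and NTS. Among all genes tested both androgen libraries lay above both stripped libraries in 29.9% and below them in 31.3%. For the 9 transcripts that rose both control medium libraries lie below both androgen libraries.

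The fusion gene's parts rose together. TMPRSS2, a membrane serine protease, was at 90.6 and 97.5 CPM in stripped serum and 931 and 483 CPM with androgen (log2 fold change 2.91 ± 0.37, adjusted p 0.00171), and ERG was at 127 and 158 CPM in stripped serum and 887 and 582 CPM with androgen (log2 fold change 2.36 ± 0.33, adjusted p 0.00274). Control medium held 238 and 249 CPM of TMPRSS2 and 219 and 265 CPM of ERG, between the stripped and the androgen libraries for both genes. Counts per gene do not separate reads of the fused transcript from those of the intact genes. In the list of ETS factors and genes linked to ERG fusion tumours, 10 of 22 tested members rose and 1 fell (median 1.22). Among all genes tested 8.67% rose and 8.8% fell. AMACR, a racemase of branched-chain fatty acid breakdown that is used as a tissue marker of prostate cancer, was at 18.2 and 25 CPM in stripped serum and 909 and 500.0 CPM with androgen (log2 fold change 5.03 ± 0.34, adjusted p 0.000282), 32.6-fold. Its exons overlap those of the read-through gene C1QTNF3-AMACR, so part of its reads could be assigned to either. PLAT, the tissue plasminogen activator, was at 0.0984 and 0.289 CPM in stripped serum and 6.70 and 9.91 CPM with androgen (log2 fold change 5.35 ± 0.81, adjusted p 0.00366). HLA-DMB, which loads peptides on class II molecules, was at 28.1 and 16.5 CPM in stripped serum and 131 and 220.1 CPM with androgen (log2 fold change 2.98 ± 0.46, adjusted p 0.00384). ARHGDIB, an inhibitor of small GTPases, PEX10, a peroxisome assembly factor, and PLA1A, a phospholipase, rose by log2 2.68 ± 0.42 (adjusted p 0.00407), 2.22 ± 0.26 (adjusted p 0.00126) and 1.37 ± 0.36 (adjusted p 0.0281). Among other ETS factors ETV4 and ETV6 rose (log2 2.32 ± 0.59, adjusted p 0.0261 and 1.29 ± 0.28, adjusted p 0.0136), and ELK3 fell from 15.2 and 16 to 7.57 and 9.69 CPM (log2 fold change -0.85 ± 0.26, adjusted p 0.0481). Leaving out each library left 7 to 9 members that rose. The call of ELK3 was lost without any 1 of the 4 libraries (adjusted p 0.216).

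Transcripts listed here as held down by androgen moved both ways. Of 19 tested, 7 fell and 4 rose, against 8.8% and 8.67% of all genes tested, with a median of -0.73. FOLH1, which encodes prostate-specific membrane antigen, a carboxypeptidase, was at 1862 and 1561 CPM in stripped serum and 143 and 276 CPM with androgen (log2 fold change -3.03 ± 0.42, adjusted p 0.00275). CDH2, the neural cadherin, was at 19.8 and 2.44 CPM in stripped serum and 0.131 and 0.0889 CPM with androgen (log2 fold change -6.60 ± 1.15, adjusted p 0.00595). CAMK2N1, an inhibitor of calmodulin kinase II, fell from 665 and 374 to 63.5 and 109 CPM (log2 fold change -2.59 ± 0.36, adjusted p 0.00264), and OPRK1, the kappa opioid receptor, from 28.5 and 39.9 to 5.92 and 6.13 CPM (log2 fold change -2.50 ± 0.32, adjusted p 0.00172). SLC30A4, a zinc exporter, and the receptor kinase MET fell with a log2 fold change of -2.22 ± 0.45 (adjusted p 0.0108) and -1.91 ± 0.53 (adjusted p 0.0361). The 4 members that rose were 3 UGT2B enzymes, which attach glucuronic acid to their substrates, and PSCA, a surface antigen of prostate cells. UGT2B10 was at 0.541 and 1.98 CPM in stripped serum and 12.1 and 14.2 CPM with androgen (log2 fold change 3.36 ± 0.63, adjusted p 0.00832) and UGT2B11 at 0.295 and 0.413 CPM in stripped serum and 4.57 and 7.56 CPM with androgen (log2 fold change 4.07 ± 0.83, adjusted p 0.0109). UGT2B28 had 51 reads against 0, at least 16.6-fold higher with androgen against the limit of 3 reads over the stripped group, and reads can be shared among the near-identical UGT2B genes. PSCA was at 10.1 and 4.47 CPM in stripped serum and 59.0 and 20.9 CPM with androgen (log2 fold change 2.45 ± 0.55, adjusted p 0.0162). So the 4 members that rose did not do what the list's name says, and 8 members passed in neither direction. Calls that did not hold with 1 library fewer were those of CDH2 and SLC30A4 without androgen replicate 2 (adjusted p 0.055, 0.0832), that of UGT2B11 without stripped replicate 1 or androgen replicate 2 (adjusted p 0.0783) and that of PSCA without stripped replicate 2 or androgen replicate 1 (adjusted p 0.0997).

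Calls among genes of steroid synthesis, steroid receptors and luminal identity were 1 of 15, 4 of 18 and 3 of 18 tested, against 17.5% of all genes tested. Among the 15 tested enzymes that make or interconvert steroids, 1 rose (0, 0, 2 and 0 with 1 library left out), HSD3B1, which makes androstenedione from its precursor, at 0.246 and 0.0827 CPM in stripped serum and 2.22 and 3.60 CPM with androgen (log2 fold change 4.14 ± 0.90, adjusted p 0.014). Among the 18 steroid receptors, cofactors and chaperones, FKBP5 was the 1 that rose and 3 fell (1, 3, 1 and 1 with 1 library left out), with the coactivators NCOA2 (122 and 180.2 to 70.9 and 56.6 CPM, log2 -1.24 ± 0.37, adjusted p 0.0458) and NCOA3 (72.0 and 57.8 to 43.1 and 36.6 CPM, log2 -0.70 ± 0.22, adjusted p 0.0497) among them. Among the 18 lineage factors 2 rose (0, 1, 0 and 2 with 1 library left out), SPDEF and SOX9, a factor of progenitor and luminal cells, at 55.0 and 80.2 CPM in stripped serum and 217 and 111 CPM with androgen (log2 fold change 1.28 ± 0.33, adjusted p 0.026), and 1 fell. Of these calls, some were lost with 1 library fewer: that of NCOA2 without any 1 of the 4 libraries (adjusted p 0.215), that of NCOA3 without stripped replicate 1 or androgen replicate 1 or 2 (adjusted p 0.241) and that of SOX9 without stripped replicate 1 or androgen replicate 1 (adjusted p 0.157).

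Of 26 neural and neuroendocrine transcripts tested, 10 fell and 0 rose, against 8.8% and 8.67% of all genes tested. The other 16 did not pass, 6 of the 26 had a positive change, with a list median of -1.23, and 14 had both androgen libraries below both stripped libraries, a pattern seen in 31.3% of all genes tested. NTS, the neuropeptide neurotensin, was at 11.9 and 7.44 CPM in stripped serum and 0.0435 and 0.267 CPM with androgen (log2 fold change -5.93 ± 0.75, adjusted p 0.00177). CHGA, the granule protein chromogranin A, was at 126 and 703 CPM in stripped serum and 54.4 and 41.7 CPM with androgen (log2 fold change -3.11 ± 0.68, adjusted p 0.0146). Most of the stripped level of CHGA came from 1 library, while the androgen libraries were close to each other. GRIA2, a glutamate receptor subunit, had the same pattern at 11.6 and 54.8 CPM in stripped serum and 4.40 and 3.56 CPM with androgen (log2 fold change -3.06 ± 0.59, adjusted p 0.00899). CHGB, a second granule protein, fell from 150.3 and 106 to 45.1 and 23.6 CPM (log2 fold change -1.90 ± 0.30, adjusted p 0.00412), and SEMA6A, a guidance protein, from 182 and 109 to 45.6 and 33.2 CPM (log2 fold change -1.88 ± 0.31, adjusted p 0.00479). NLGN1, a synaptic adhesion protein, fell with a log2 fold change of -3.74 ± 0.61 (adjusted p 0.00461), and NCAM1, a neural adhesion molecule, with one of -2.79 ± 0.56 (adjusted p 0.0103). Without stripped replicate 1, stripped replicate 2, androgen replicate 1 or androgen replicate 2, 9, 9, 8 and 5 members fell. Leaving out 1 library ended some of these calls: that of CHGA without stripped replicate 2 or androgen replicate 1 or 2 (adjusted p 0.102) and that of GRIA2 without androgen replicate 2 (adjusted p 0.07).

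The 10 largest rises, taken over genes that reached 5 CPM on average in one group and whose groups did not overlap, were of transcripts below 10 CPM in both stripped libraries. PRR4, a proline-rich secreted protein of tears and saliva, had 1937 reads against 1, a ratio of 1895 with a 95% counting interval of 339.8 to 74900, and its level with androgen was 34.8 and 50.5 CPM. Its exons overlap those of the read-through gene PRH1-PRR4. C1orf87 had 234 reads against 0, at least 76.3-fold higher. CST2, a salivary cystatin whose reads can be shared with its paralogs, was at 0.886 and 0.744 CPM in stripped serum and 408 and 118 CPM with androgen (log2 fold change 8.33 ± 0.88, adjusted p 0.00096). SLC5A1, the sodium-glucose cotransporter of intestine, was at 0 and 0.289 CPM in stripped serum and 50.5 and 34.3 CPM with androgen (log2 fold change 8.06 ± 0.74, adjusted p 0.000465). In control medium CST2 was at 9.29 and 3.80 CPM and SLC5A1 at 0.330 and 0.598 CPM, nearer to the stripped than to the androgen libraries. SPARC, a matrix glycoprotein of bone, had 328 reads against 2, a ratio of 160.5 with a 95% counting interval of 44.1 to 1331. OLAH, a thioesterase of fatty acid synthesis, had 387 reads against 3, a ratio of 126 with a 95% counting interval of 42.9 to 615. RHOJ, a small GTPase, was at 0 and 0.331 CPM in stripped serum and 17.2 and 15.6 CPM with androgen (log2 fold change 6.51 ± 1.06, adjusted p 0.00483). STEAP4 and PGC, described above, are also among the 10, and 1 of the 10 is not reported here. The intervals cover counting error alone and say nothing of the spread between cultures. 

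The 10 largest falls by the same rule included high-level transcripts. IGFBP3, which binds insulin-like growth factors in the extracellular space, was at 1886 and 196 CPM in stripped serum and 9.27 and 13.3 CPM with androgen (log2 fold change -6.53 ± 1.16, adjusted p 0.00643). The stripped libraries differed almost 10-fold from each other, and the lower of them was still over 10 times above either androgen library. NAALAD2, a peptidase related to FOLH1, was at 277 and 465 CPM in stripped serum and 4.53 and 8.36 CPM with androgen (log2 fold change -5.85 ± 0.62, adjusted p 0.000953). NOV, a secreted matricellular protein also known as CCN3, was at 158 and 89.2 CPM in stripped serum and 1.00 and 2.71 CPM with androgen (log2 fold change -6.06 ± 0.48, adjusted p 0.000337). A1CF, an RNA editing cofactor of liver and gut, was at 53.4 and 25.8 CPM in stripped serum and 0.566 and 0.622 CPM with androgen (log2 fold change -6.05 ± 1.25, adjusted p 0.0117). GPR85, an orphan receptor of brain, was at 44.9 and 35.0 CPM in stripped serum and 0.435 and 1.02 CPM with androgen (log2 fold change -5.77 ± 0.87, adjusted p 0.00359). LRRTM4, a synaptic adhesion protein, and DMKN, an epidermal secreted protein, fell with a log2 fold change of -5.65 ± 0.77 (adjusted p 0.00253) and -5.62 ± 0.61 (adjusted p 0.00103). UBTFL1, related to a ribosomal DNA transcription factor, had 297 reads against 1, a ratio of 304 with a 95% counting interval of 54.1 to 12030, and 278 of those reads came from stripped replicate 2. CDH2 and NTS were the other 2 of the 10. In control medium IGFBP3 was at 309 and 189 CPM, NAALAD2 at 193 and 103 CPM and NOV at 24.3 and 16.4 CPM, above both androgen libraries for each gene. With 1 library left out, the calls lost were those of IGFBP3 and CDH2 without androgen replicate 2 (adjusted p 0.0515, 0.055), that of A1CF without stripped replicate 1 or androgen replicate 1 or 2 (adjusted p 0.081) and that of UBTFL1 without stripped replicate 2 or androgen replicate 1 or 2 (adjusted p 0.133).

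Most of the mitotic and DNA replication genes tested rose, in calls that depended on single libraries. All 45 mitotic genes tested had both androgen libraries above both stripped libraries, against 29.9% of all genes tested. Of the 45, 34 passed as risen, against 8.67% of all genes tested, and the median change was 1.63. CDC20, an activator of the anaphase-promoting complex, was at 24.1 and 43.9 CPM in stripped serum and 121 and 238 CPM with androgen (log2 fold change 2.40 ± 0.36, adjusted p 0.00367). CCNB1, the mitotic cyclin B1, was at 58.0 and 126 CPM in stripped serum and 326 and 611 CPM with androgen (log2 fold change 2.35 ± 0.40, adjusted p 0.00555), and PLK1, a mitotic kinase, at 23.2 and 45.9 CPM in stripped serum and 124 and 206 CPM with androgen (log2 fold change 2.25 ± 0.37, adjusted p 0.00504). In each of these, androgen replicate 2 was the highest library and stripped replicate 1 the lowest. The summed level of the 45 genes was 1174.5 and 2667 CPM in stripped serum, 4670 and 6811 CPM with androgen, and 6151 and 6097 CPM in control medium. Of 44 DNA replication genes, 26 rose and 0 fell (median 1.00), against 8.67% and 8.8% of all genes tested, and 40 had no overlap upward. RRM2, the small subunit of ribonucleotide reductase, was at 36.1 and 83.9 CPM in stripped serum and 205 and 331 CPM with androgen (log2 fold change 2.16 ± 0.49, adjusted p 0.0164). TK1, thymidine kinase, was at 44.3 and 64.5 CPM in stripped serum and 147 and 269 CPM with androgen (log2 fold change 1.94 ± 0.37, adjusted p 0.00866), and E2F1, a factor of S phase entry, at 24.3 and 24.3 CPM in stripped serum and 71.7 and 107 CPM with androgen (log2 fold change 1.88 ± 0.35, adjusted p 0.00763). Without stripped replicate 1, stripped replicate 2, androgen replicate 1 or androgen replicate 2, 8, 44, 30 and 4 mitotic genes and 0, 19, 16 and 0 replication genes rose. The calls of RRM2, TK1 and E2F1 were lost without stripped replicate 1 or androgen replicate 2 (adjusted p 0.0975, 0.0677, 0.054).

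Of 20 tested regulators of the step into S phase, 5 rose and 1 fell, against 8.67% and 8.8% of all genes tested. With 1 library left out, 1, 4, 5 and 1 rose. CDK6 and CDK2, kinases that drive this step, were at 3.89 and 1.53 CPM in stripped serum and 11.8 and 16.8 CPM with androgen (log2 fold change 2.41 ± 0.50, adjusted p 0.0118) and at 31.7 and 39.2 CPM in stripped serum and 84.5 and 96.9 CPM with androgen (log2 fold change 1.35 ± 0.24, adjusted p 0.00675). CDKN2D, an inhibitor of CDK4 and CDK6, was at 4.87 and 5.04 CPM in stripped serum and 10.4 and 16.4 CPM with androgen (log2 fold change 1.44 ± 0.40, adjusted p 0.0342). Cyclins CCND1 and CCND3 rose by log2 0.97 ± 0.21 (adjusted p 0.0138) and 1.02 ± 0.24 (adjusted p 0.0205). CDKN2A, a gene of 2 tumour suppressor proteins, was at 16.2 and 18.9 CPM in stripped serum and 3.05 and 5.78 CPM with androgen (log2 fold change -1.99 ± 0.40, adjusted p 0.0106). An inhibitor thus rose beside the kinases, and another fell. Of these calls, some were lost with 1 library fewer: that of CDK6 without androgen replicate 2 (adjusted p 0.0684), that of CDK2 without stripped replicate 1 (adjusted p 0.0514) and that of CDKN2D without stripped replicate 1 or 2 or androgen replicate 2 (adjusted p 0.195). Also lost were that of CDKN2A without androgen replicate 1 (adjusted p 0.0643).

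RNAs without poly(A) tails differed with androgen, and also among the other VCaP groups, in these poly(A)-selected libraries. The list was a check of RNA selection and of RNA quality. Of its 7 tested members 4 rose (1, 3, 2 and 2 with 1 library left out), against 8.67% of all genes tested. The calls of RPPH1 and RMRP were lost in the fit of all 34 libraries (adjusted p 0.156 and 0.174). RPPH1, the RNA of RNase P, was at 17.4 and 18.2 CPM in stripped serum and 143 and 104 CPM with androgen (log2 fold change 2.79 ± 0.41, adjusted p 0.00321). RMRP, the RNA of RNase MRP, was at 4.87 and 8.35 CPM in stripped serum and 37.3 and 26.2 CPM with androgen (log2 fold change 2.26 ± 0.55, adjusted p 0.0213). SNORA73B and SCARNA10, small guide RNAs, rose by log2 3.44 ± 0.67 (adjusted p 0.00915) and 2.93 ± 0.89 (adjusted p 0.0481). The summed level of the 14 measured members was 25.8 and 31.3 CPM in stripped serum, 188 and 137 CPM with androgen, and 49.0 and 144 CPM in control medium, so 1 control medium library was as high as the androgen libraries. On plastic it was 80.9 CPM in stripped serum and 5.08 and 4.23 CPM in control medium. Replication-dependent histone mRNAs end in a stem-loop in place of a tail. Of 25 tested, 14 rose and 0 fell (median 2.02), against 8.67% and 8.8% of all genes tested. HIST1H1C, a linker histone, was at 62.1 and 119 CPM in stripped serum and 389 and 578 CPM with androgen (log2 fold change 2.42 ± 0.41, adjusted p 0.00528). HIST1H2BJ and HIST1H2AM, core histones with near-identical copies that can share reads, rose by log2 3.57 ± 0.67 (adjusted p 0.00801) and 2.27 ± 0.50 (adjusted p 0.0151). The summed histone level was 220 and 295 CPM in stripped serum and 745 and 1151 CPM with androgen, while control medium, with a mitotic sum near that of the androgen libraries, held 327 and 295 CPM. The part of this shift in the other results was not tested. Without stripped replicate 1, stripped replicate 2, androgen replicate 1 or androgen replicate 2, 1, 12, 8 and 1 histone genes rose. Leaving out 1 library ended some of these calls: that of RMRP without stripped replicate 1 or androgen replicate 1 or 2 (adjusted p 0.134) and those of HIST1H2BJ and HIST1H2AM without stripped replicate 1 or androgen replicate 2 (adjusted p 0.0658, 0.0832).

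**Figure D3:**
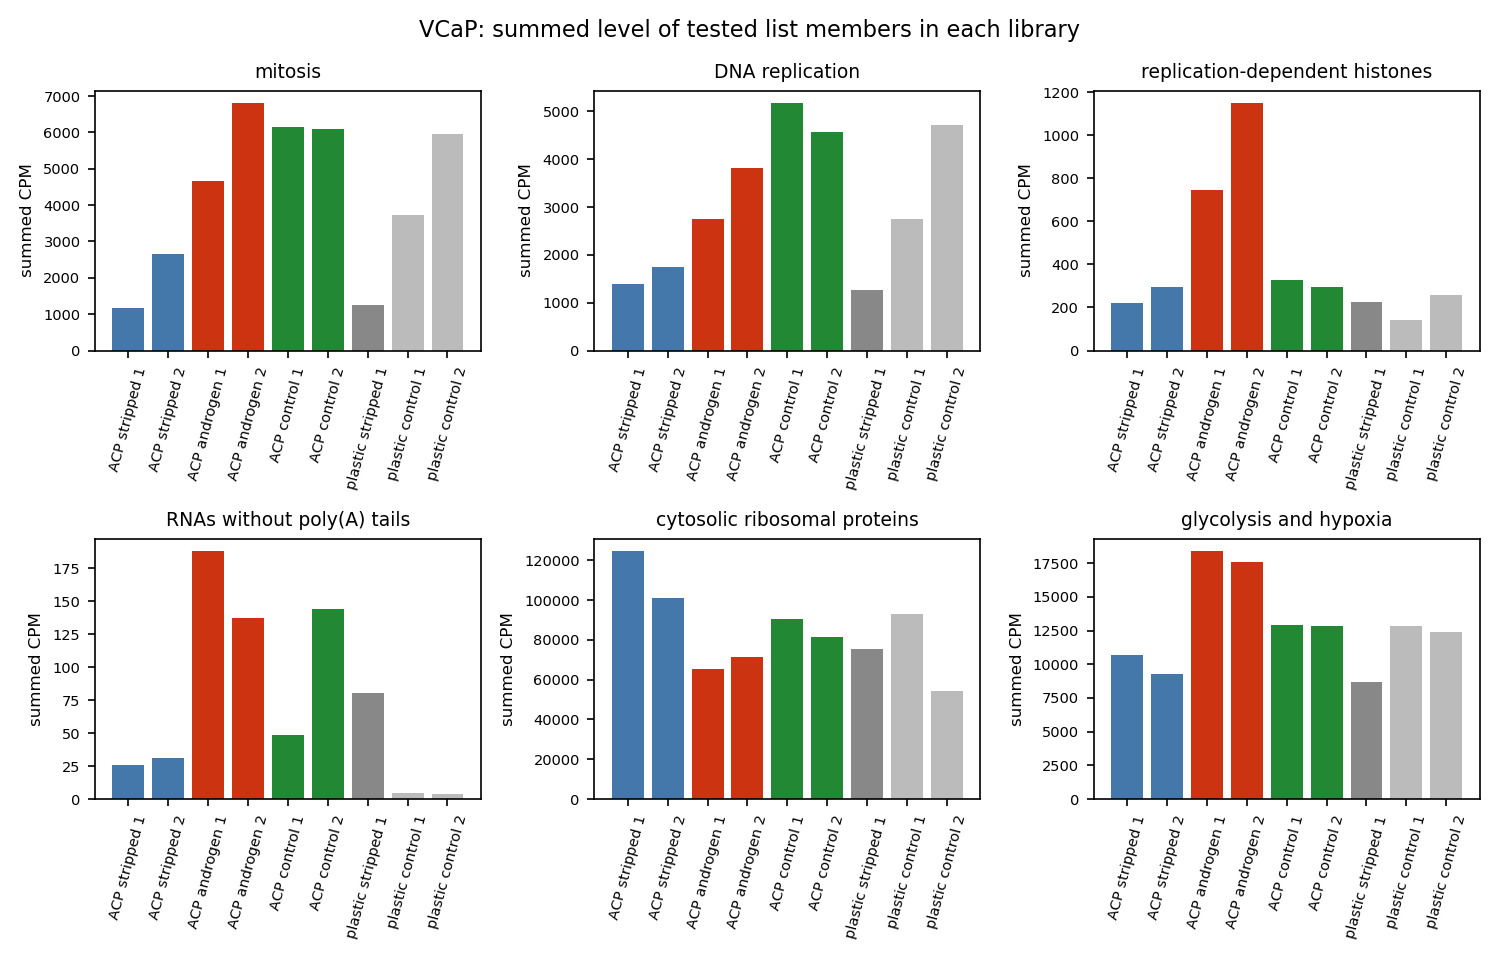
Summed CPM of the tested members of 6 gene lists in each of the 9 VCaP libraries, as bars from 0, with blue for ACP stripped, red for ACP stripped with androgen, green for ACP control medium and grey for plastic. Histones are highest in both androgen libraries, ribosomal proteins are highest in both ACP stripped libraries, and RNAs without poly(A) tails vary widely among groups.

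Transcripts of the cytosolic ribosome were lower with androgen. All 61 tested subunits had a negative change, and 57 had both androgen libraries below both stripped libraries against 31.3% of all genes tested. Of the 61, 8 passed as fallen, against 8.8% of all genes tested, and the median change was -0.66. RPL12 was at 2881 and 2209 CPM in stripped serum and 790.1 and 981 CPM with androgen (log2 fold change -1.52 ± 0.29, adjusted p 0.00832). RPL3 was at 5559 and 3161 CPM in stripped serum and 1619.8 and 1900.0 CPM with androgen (log2 fold change -1.31 ± 0.37, adjusted p 0.0373), and RPL10A at 1240.2 and 1028 CPM in stripped serum and 544 and 554 CPM with androgen (log2 fold change -1.05 ± 0.27, adjusted p 0.0275). The summed level was 124430 and 100770 CPM in stripped serum against 65395 and 71196 CPM with androgen, with 90468 and 81445 CPM in control medium. On plastic in control medium it was 93166 and 54511 CPM, so libraries of 1 group also differed widely. The calls rested on single libraries, since without stripped replicate 1, stripped replicate 2, androgen replicate 1 or androgen replicate 2, 0, 8, 0 and 1 members fell. Of 66 nuclear-encoded subunits of the respiratory chain, 7 rose and 0 fell, a share near the 8.67% of all genes, with a median of 0.38. With 1 library left out 0, 11, 4 and 0 rose. NDUFA6, of complex I, was at 41.8 and 52.8 CPM in stripped serum and 87.6 and 106 CPM with androgen (log2 fold change 1.03 ± 0.21, adjusted p 0.0114), and UQCRQ and UQCRFS1, of complex III, rose by log2 0.99 ± 0.23 (adjusted p 0.0186) and 0.88 ± 0.21 (adjusted p 0.0205). With 1 library left out, the calls lost were that of RPL12 without stripped replicate 1 or androgen replicate 1 (adjusted p 0.0572), those of RPL3, RPL10A and UQCRQ without stripped replicate 1 or androgen replicate 1 or 2 (adjusted p 0.237, 0.14, 0.0826) and that of NDUFA6 without stripped replicate 1 or androgen replicate 2 (adjusted p 0.0781). Also lost were that of UQCRFS1 without stripped replicate 1 or 2 or androgen replicate 2 (adjusted p 0.147).

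**Figure D4:**
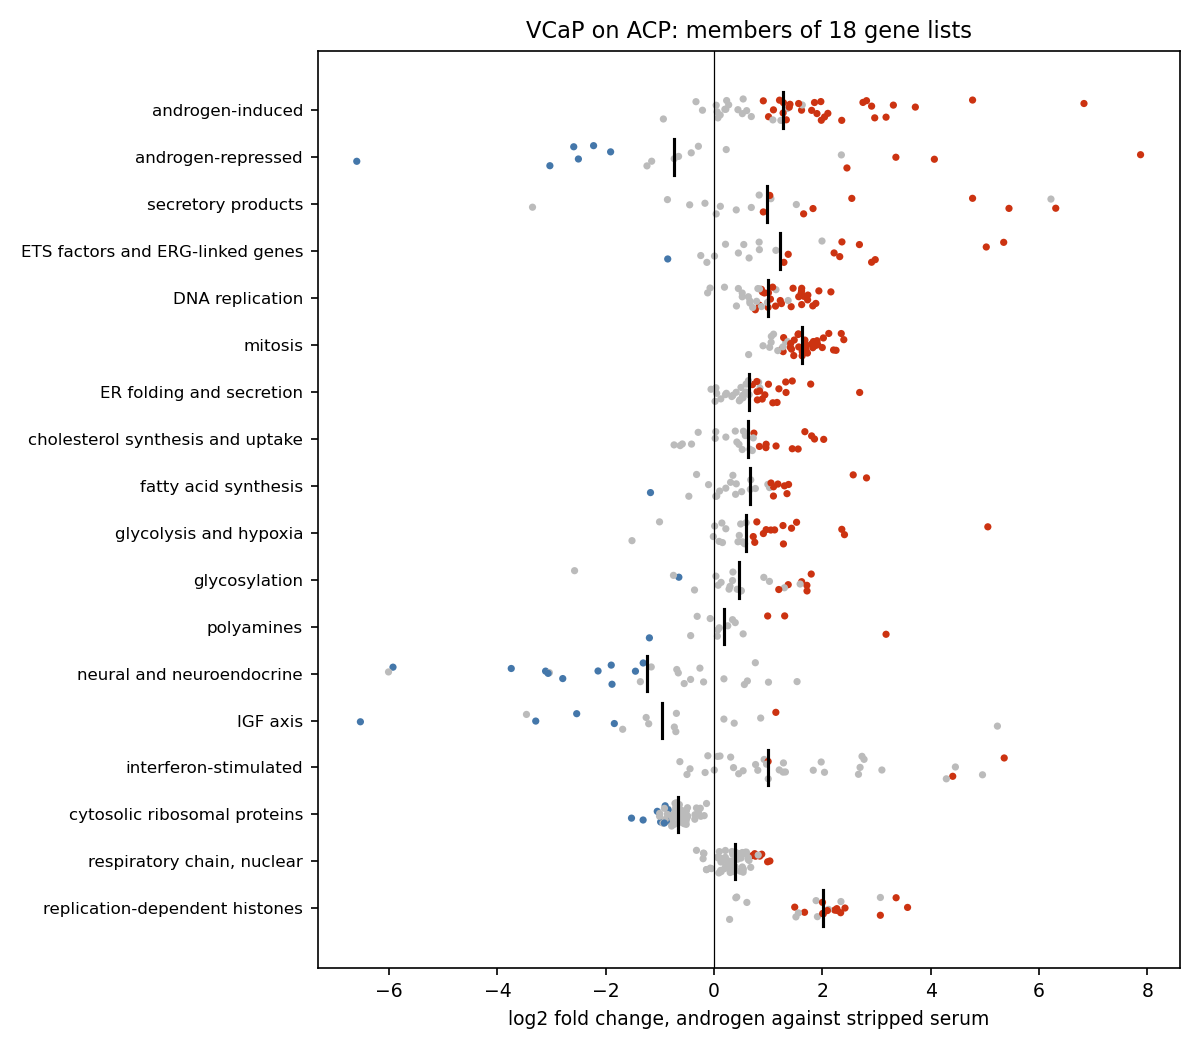
Each point is 1 tested member of the list named at the left, at its log2 fold change of androgen against stripped serum, with red for genes that rose, blue for genes that fell and grey for genes that did not pass. The black bar is the median of the list. Mitosis (median 1.63) lies wholly above 0 and cytosolic ribosomal proteins (median -0.66) wholly below it, while androgen-repressed genes lie on both sides.

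Lipid synthesis rose in part. Of 28 genes of cholesterol synthesis and uptake, 11 rose and 0 fell (median 0.62), against 8.67% and 8.8% of all genes tested. With 1 library left out, 10, 6, 8 and 6 rose. STARD4, a sterol carrier, was at 10.9 and 19.6 CPM in stripped serum and 67.5 and 57.2 CPM with androgen (log2 fold change 2.03 ± 0.33, adjusted p 0.00489). INSIG1, which retains the sterol sensor in the endoplasmic reticulum, was at 223 and 166 CPM in stripped serum and 681 and 729 CPM with androgen (log2 fold change 1.86 ± 0.26, adjusted p 0.00279). The enzymes EBP, IDI1 and FDPS rose by log2 1.68 ± 0.25 (adjusted p 0.00321), 1.55 ± 0.27 (adjusted p 0.00615) and 1.44 ± 0.29 (adjusted p 0.011). Of 27 genes of fatty acid synthesis, 9 rose and 1 fell (median 0.67), against the same shares of all genes. With 1 library left out, 5, 9, 6 and 7 rose. ACSL3, which activates long fatty acids, was at 160.4 and 293 CPM in stripped serum and 1862 and 1330.0 CPM with androgen (log2 fold change 2.82 ± 0.34, adjusted p 0.0014), and FADS2, a desaturase, at 26.4 and 34.8 CPM in stripped serum and 181 and 183 CPM with androgen (log2 fold change 2.57 ± 0.23, adjusted p 0.000459). ELOVL5, an elongase, rose from 156 and 185 to 431 and 457 CPM (log2 fold change 1.38 ± 0.23, adjusted p 0.00518). The lipogenic enzymes SCD and FASN and their regulator SREBF1 rose by log2 1.35 ± 0.24 (adjusted p 0.00643), 1.10 ± 0.30 (adjusted p 0.0325) and 1.05 ± 0.22 (adjusted p 0.0116). DGAT2, which completes triglycerides, fell from 31.4 and 26.8 to 11.9 and 13.9 CPM (log2 fold change -1.17 ± 0.27, adjusted p 0.0183). The call of DGAT2 was lost without stripped replicate 1 or androgen replicate 1 or 2 (adjusted p 0.096).

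The machinery of the secretory pathway rose in 16 of 40 tested genes with 0 falls and a median of 0.64, against 8.67% that rose among all genes tested. There was no overlap upward in 34, against 29.9% of all genes tested. KDELR3, a receptor that returns escaped chaperones, was at 5.27 and 3.27 CPM in stripped serum and 28.6 and 26.4 CPM with androgen (log2 fold change 2.69 ± 0.40, adjusted p 0.00346). SEC11C, a signal peptidase subunit, was at 69.8 and 101 CPM in stripped serum and 317 and 272 CPM with androgen (log2 fold change 1.79 ± 0.22, adjusted p 0.00155). SEC24D, a coat protein of export vesicles, was at 26.9 and 53.7 CPM in stripped serum and 124 and 96.0 CPM with androgen (log2 fold change 1.44 ± 0.35, adjusted p 0.0213). The folding enzymes P4HB, PDIA4 and HSP90B1 rose by log2 1.09 ± 0.20 (adjusted p 0.00773), 0.94 ± 0.24 (adjusted p 0.0272) and 0.80 ± 0.23 (adjusted p 0.0377). KDELR3 was at 4.48 and 2.35 CPM and SEC11C at 76.7 and 72.8 CPM in control medium, near the level of the stripped libraries. Without stripped replicate 1, stripped replicate 2, androgen replicate 1 or androgen replicate 2, 6, 19, 7 and 7 members rose. Glycosylation genes rose in 6 of 24 and fell in 1, against 8.67% and 8.8% of all genes tested. B4GALT1, a galactosyltransferase, was at 47.4 and 55.6 CPM in stripped serum and 188 and 150.5 CPM with androgen (log2 fold change 1.72 ± 0.19, adjusted p 0.00109). ST6GALNAC1, which adds sialic acid to mucin-type glycans, was at 26.5 and 41.4 CPM in stripped serum and 115 and 108 CPM with androgen (log2 fold change 1.71 ± 0.28, adjusted p 0.00503). CSGALNACT1, which starts chondroitin chains, was at 33.6 and 61.1 CPM in stripped serum and 214 and 115 CPM with androgen (log2 fold change 1.79 ± 0.39, adjusted p 0.0147). UAP1, GMPPB and NANS, which supply activated sugars, rose by log2 1.37 ± 0.20 (adjusted p 0.00328), 1.62 ± 0.22 (adjusted p 0.00253) and 1.20 ± 0.20 (adjusted p 0.00489). TUSC3, an oligosaccharyltransferase subunit, fell from 91.5 and 93.7 to 55.7 and 62.4 CPM (log2 fold change -0.65 ± 0.17, adjusted p 0.0317). Of these calls, some were lost with 1 library fewer: that of SEC24D without stripped replicate 1 or androgen replicate 1 or 2 (adjusted p 0.105), that of CSGALNACT1 without stripped replicate 1 or androgen replicate 1 (adjusted p 0.0983) and that of TUSC3 without any 1 of the 4 libraries (adjusted p 0.148).

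Polyamine, amino acid and sugar metabolism changed at named steps. ODC1, ornithine decarboxylase, the first enzyme of polyamine synthesis, was at 187 and 270.2 CPM in stripped serum and 2188 and 1950.2 CPM with androgen (log2 fold change 3.18 ± 0.26, adjusted p 0.000354), with little spread inside either group. SAT1 and SMOX, which break polyamines down, rose from 188 and 88.6 to 306 and 377 CPM (1.30 ± 0.37, adjusted p 0.0369) and from 14.2 and 11.5 to 27.8 and 23.2 CPM (0.99 ± 0.29, adjusted p 0.0416), and ARG2, a mitochondrial arginase, fell from 88.7 and 180.2 to 70.4 and 47.3 CPM (-1.19 ± 0.33, adjusted p 0.036). The other 10 of 14 polyamine genes did not pass, and 2, 1, 1 and 1 rose with 1 library left out. In the list of ATF4 targets and amino acid supply, 6 of 31 rose and 2 fell, against 8.67% and 8.8% of all genes tested. With 1 library left out, 3, 3, 4 and 1 rose and 0, 2, 0 and 0 fell. ATF3, a stress-induced factor, was at 2.56 and 1.24 CPM in stripped serum and 28.8 and 26.7 CPM with androgen (log2 fold change 3.87 ± 0.47, adjusted p 0.00151). TRIB3, a pseudokinase, and SLC7A11, the cystine transporter, rose by log2 1.37 ± 0.31 (adjusted p 0.0162) and 1.35 ± 0.31 (adjusted p 0.0182). The enzymes PHGDH, of serine synthesis, and CBS, of cysteine synthesis, fell with a log2 fold change of -0.79 ± 0.20 (adjusted p 0.0265) and -0.96 ± 0.24 (adjusted p 0.0236). In glycolysis and the hypoxia response, 14 of 29 rose and 0 fell (median 0.59), against 8.67% and 8.8% of all genes tested. SLC2A3, a glucose transporter, was at 0.640 and 1.12 CPM in stripped serum and 36.5 and 22.8 CPM with androgen (log2 fold change 5.06 ± 0.51, adjusted p 0.000806), and PFKFB2, which activates phosphofructokinase, at 15.2 and 24.0 CPM in stripped serum and 111 and 97.2 CPM with androgen (log2 fold change 2.41 ± 0.29, adjusted p 0.00137). ANKRD37, a hypoxia-induced gene, was at 2.07 and 1.32 CPM in stripped serum and 12.6 and 4.80 CPM with androgen (log2 fold change 2.36 ± 0.52, adjusted p 0.0144). The enzymes LDHA, ALDOA and ENO1 rose by log2 1.27 ± 0.19 (adjusted p 0.00377), 1.12 ± 0.19 (adjusted p 0.00598) and 1.05 ± 0.21 (adjusted p 0.0105). Leaving out single libraries left 6 to 8 members that rose. Leaving out 1 library ended some of these calls: those of SAT1 and ARG2 without stripped replicate 2 or androgen replicate 1 or 2 (adjusted p 0.156, 0.206), that of SMOX without any 1 of the 4 libraries (adjusted p 0.149) and that of TRIB3 without androgen replicate 2 (adjusted p 0.0884). Also lost were that of SLC7A11 without stripped replicate 1 or 2 or androgen replicate 2 (adjusted p 0.129), those of PHGDH and CBS without stripped replicate 1 or androgen replicate 1 or 2 (adjusted p 0.147, 0.159) and that of ANKRD37 without stripped replicate 1 or 2 or androgen replicate 1 (adjusted p 0.105).

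In the insulin-like growth factor axis 4 of 16 tested genes fell and 1 rose (median -0.97), against 8.8% and 8.67% of all genes tested. With 1 library left out, 3, 7, 3 and 2 fell. Besides IGFBP3, GRB10, an adaptor that damps the receptors, fell with very little spread: 128 and 108 CPM in stripped serum and 18.8 and 21.9 CPM with androgen (log2 fold change -2.54 ± 0.21, adjusted p 0.000356). IGFBP5 was at 6.60 and 10.3 CPM in stripped serum and 0.609 and 1.11 CPM with androgen (log2 fold change -3.29 ± 0.43, adjusted p 0.00214), and IGFBP4 fell with a log2 fold change of -1.84 ± 0.48 (adjusted p 0.0274). The receptor IGF1R was at 291 and 186 CPM in stripped serum and 679 and 374 CPM with androgen (log2 fold change 1.14 ± 0.32, adjusted p 0.0365). The 3 binding proteins and the damping adaptor were thus lower while the receptor was higher. With 1 library left out, the calls lost were that of IGFBP3 without androgen replicate 2 (adjusted p 0.0515) and that of IGF1R without stripped replicate 1 or 2 or androgen replicate 1 (adjusted p 0.196).

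Regulators of cell death and targets of p53 changed in both directions, 4 up and 5 down of 21, against 8.67% and 8.8% of all genes tested. With 1 library left out, 2, 3, 3 and 1 rose and 3, 5, 4 and 3 fell. GDF15, a secreted stress factor, was at 16.7 and 13.4 CPM in stripped serum and 78.1 and 124 CPM with androgen (log2 fold change 2.75 ± 0.44, adjusted p 0.0044), and FAS, a death receptor, at 20.3 and 42.8 CPM in stripped serum and 108 and 194 CPM with androgen (log2 fold change 2.25 ± 0.52, adjusted p 0.0175). BAK1 and BCL2L1, of opposite effect on mitochondrial cell death, rose by log2 1.11 ± 0.24 (adjusted p 0.0139) and 0.75 ± 0.19 (adjusted p 0.0253). SESN1, which restrains mTORC1, was at 133 and 133 CPM in stripped serum and 30.9 and 38.9 CPM with androgen (log2 fold change -1.93 ± 0.22, adjusted p 0.00123). BTG2, an antiproliferative factor, was at 115.6 and 128 CPM in stripped serum and 38.3 and 38 CPM with androgen (log2 fold change -1.67 ± 0.22, adjusted p 0.00213), and TP53INP1, a p53-induced cofactor, at 685 and 626 CPM in stripped serum and 239 and 181 CPM with androgen (log2 fold change -1.64 ± 0.23, adjusted p 0.00284). The proapoptotic BID and BMF fell with a log2 fold change of -1.04 ± 0.23 (adjusted p 0.0147) and -1.21 ± 0.29 (adjusted p 0.0215). The calls of FAS and BAK1 were lost without stripped replicate 1 or androgen replicate 2 (adjusted p 0.109, 0.11).

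Immediate early genes and MAPK feedback inhibitors rose in 7 of 26 and fell in 1, against 8.67% and 8.8% of all genes tested. With 1 library left out, 4, 3, 2 and 1 rose. DUSP5, a phosphatase of ERK, was at 2.02 and 1.08 CPM in stripped serum and 4.18 and 7.69 CPM with androgen (log2 fold change 1.94 ± 0.55, adjusted p 0.0367). SPRED2, a feedback inhibitor of Ras signalling, was at 47.8 and 32.7 CPM in stripped serum and 62.2 and 75.4 CPM with androgen (log2 fold change 0.77 ± 0.22, adjusted p 0.0384). DUSP6, FOSB and JUNB rose by log2 2.15 ± 0.55 (adjusted p 0.0254), 2.16 ± 0.61 (adjusted p 0.0364) and 0.75 ± 0.23 (adjusted p 0.0465), and ATF3 and ETV4 are given above. JUN, a subunit of the AP-1 factor, fell from 117 and 198 to 70.9 and 62.8 CPM (log2 fold change -1.24 ± 0.29, adjusted p 0.0195). In zinc handling 3 of 17 rose and 2 fell, against 8.67% and 8.8% of all genes tested. SLC30A2, a zinc exporter into secretory vesicles, was at 2.51 and 1.86 CPM in stripped serum and 24.4 and 85.6 CPM with androgen (log2 fold change 4.66 ± 0.67, adjusted p 0.00292). SLC39A10 and SLC39A7, zinc importers, rose by log2 1.18 ± 0.20 (adjusted p 0.00543) and 1.06 ± 0.21 (adjusted p 0.0103), and the exporters SLC30A4 and SLC30A10 fell, the latter with a log2 fold change of -3.07 ± 0.90 (adjusted p 0.0416). Of these calls, some were lost with 1 library fewer: that of DUSP5 without stripped replicate 1 or 2 or androgen replicate 2 (adjusted p 0.219), those of SPRED2 and JUN without stripped replicate 2 or androgen replicate 1 or 2 (adjusted p 0.2, 0.117) and that of SLC39A7 without androgen replicate 1 (adjusted p 0.0543).

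Bone matrix genes were called in both directions, 4 of 14 tested against 17.5% of all genes tested: SPARC rose and BMP7, ALPL and BMP6 fell (1, 2, 1 and 0 fell with 1 library left out). BMP7, a bone morphogenetic protein, was at 71.2 and 76.5 CPM in stripped serum and 41.9 and 39.6 CPM with androgen (log2 fold change -0.86 ± 0.19, adjusted p 0.0161). ALPL, the bone alkaline phosphatase, fell with a log2 fold change of -2.59 ± 0.48 (adjusted p 0.00797) and BMP6 with one of -2.82 ± 0.82 (adjusted p 0.0413). Of 18 mesenchymal genes 3 were called, a share near that of all genes. SNAI2, a repressor of epithelial genes, rose at a low level (0.0492 and 0.207 CPM in stripped serum and 3.92 and 5.33 CPM with androgen, log2 5.07 ± 0.87, adjusted p 0.0056). CD44, a hyaluronan receptor, was at 63.4 and 43.1 CPM in stripped serum and 13.1 and 19.6 CPM with androgen (log2 fold change -1.71 ± 0.39, adjusted p 0.0177), and CDH2 was the other fall. The calls of BMP7 and CD44 were lost without stripped replicate 1 or androgen replicate 1 or 2 (adjusted p 0.1, 0.109).

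Interferon-stimulated genes were high in 1 androgen library. Of 35 tested, 3 rose, a share near the 8.67% of all genes tested, and 0 fell. In 7 there was no overlap upward, a share below the 29.9% of all genes, although the median change was 1.00. IFI27, an interferon-induced membrane protein, was at 0.246 and 0.331 CPM in stripped serum and 0.566 and 12 CPM with androgen (log2 fold change 4.41 ± 1.32, adjusted p 0.0454). IRF7, a factor of the interferon response, was at 26.0 and 19.3 CPM in stripped serum and 33.9 and 56.7 CPM with androgen (log2 fold change 1.00 ± 0.28, adjusted p 0.0364). GBP1, a guanylate-binding protein, was at 0.0984 and 0.0827 CPM in stripped serum and 2.31 and 5.47 CPM with androgen (log2 fold change 5.36 ± 0.83, adjusted p 0.00384). The summed level of the list was 534 and 478 CPM in stripped serum and 392 and 1392 CPM with androgen. Only androgen replicate 2 stood above the stripped libraries, and without androgen replicate 1 the number of members that rose was 17, against 1 without any other of the 4 libraries. The calls of IFI27 and IRF7 were lost without stripped replicate 1 or 2 or androgen replicate 2 (adjusted p 0.689, 0.268).

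Each summed list of markers of other cell types was below the luminal sum of 5171 to 9700 CPM, and several markers moved between the groups. Not all members were low: ALB reached 325 CPM and LUM 154 CPM in stripped serum, and LYZ 156 CPM with androgen. The 12 fibroblast markers summed to 42.4 and 166 CPM in stripped serum and 11.6 and 11.02 CPM with androgen, 1 rose and 3 fell of 9 tested. LUM, the proteoglycan lumican, made up most of this sum in stripped serum, at 37.0 and 154 CPM in stripped serum and 1.26 and 4.18 CPM with androgen (log2 fold change -5.13 ± 0.90, adjusted p 0.00622). DCN, decorin, had 50 reads against 1, a ratio of 51.1 with a 95% counting interval of 8.76 to 2058, PDGFRB fell with a log2 fold change of -2.12 ± 0.63 (adjusted p 0.0452), and COL6A3, a collagen, had 120 reads against 3, a ratio of 39.1 with a 95% counting interval of 13.1 to 192 in the other direction. THY1 was at 0 in all 4 libraries. The 14 liver markers summed to 285 and 337 CPM in stripped serum and 39.7 and 103 CPM with androgen. ALB, albumin, was nearly all of it in stripped serum, at 270.0 and 325 CPM in stripped serum and 15.4 and 65.7 CPM with androgen (log2 fold change -2.87 ± 0.63, adjusted p 0.0142), AHSG had 14 reads against 0, and SERPINA1, an antiprotease, rose from 3.89 and 5.87 to 14.1 and 11.2 CPM (log2 fold change 1.37 ± 0.33, adjusted p 0.0199). FGA, FGG, APOC3 and CYP3A4 were at 0 in all 4 libraries. The 13 leukocyte markers summed to 22.2 and 13.1 CPM in stripped serum and 92.7 and 171 CPM with androgen. LYZ, lysozyme, was most of the sum with androgen, at 12.5 and 6.41 CPM in stripped serum and 81.7 and 156 CPM with androgen (log2 fold change 3.66 ± 0.68, adjusted p 0.00807), while HBA1, a globin, had 14 reads against 0. CD3E, NKG7 and HBB were at 0 in all 4. The 8 endothelial markers summed to 3.59 and 2.56 CPM against 13.4 and 13.9 CPM. PECAM1, an adhesion molecule, was at 0 and 0.662 CPM in stripped serum and 7.96 and 8.89 CPM with androgen (log2 fold change 4.59 ± 0.95, adjusted p 0.0114), VWF rose by log2 2.36 ± 0.47 (adjusted p 0.0104) and CDH5 was at 0 in all 4. The 12 basal markers summed to 44.0 and 20.9 CPM against 36.3 and 47.8 CPM. KRT15 and KRT14, basal keratins, rose (0.443 and 0.248 to 9.09 and 3.38 CPM, log2 4.17 ± 0.75, adjusted p 0.00689, and 5.22 and 1.45 to 9.88 and 12.9 CPM, log2 1.78 ± 0.52, adjusted p 0.0425), and ITGB4, the beta subunit of a basal integrin, fell (17.9 and 6.33 to 3.79 and 2.13 CPM, log2 -2.03 ± 0.50, adjusted p 0.0224). For KRT15, KRT14 and ITGB4 the higher VCaP group mean was 2.8%, 0.235% and 0.681% of the highest RWPE group mean. Whether reads were carried over between libraries was not tested. In these bulk samples fewer cells of a type and less RNA per cell cannot be told apart, and the part of other cells in any result was not tested. Calls that did not hold with 1 library fewer were that of ALB without stripped replicate 1 (adjusted p 0.0545), that of SERPINA1 without stripped replicate 1 or androgen replicate 1 or 2 (adjusted p 0.101) and those of LYZ and PECAM1 without androgen replicate 2 (adjusted p 0.0565, 0.0562). Also lost were that of KRT14 without stripped replicate 2 or androgen replicate 1 or 2 (adjusted p 0.171) and that of ITGB4 without stripped replicate 1 or androgen replicate 2 (adjusted p 0.174).

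The androgen effect in VCaP was compared with the effect on ACP in LNCaP and MDAPCa2a by the difference of both effects in 1 fit of all 34 libraries. Of 17323 genes tested there, 1887 (10.9%) had a different effect in VCaP and LNCaP, 5.39% with the higher log2 change in VCaP and 5.51% with the lower. Between VCaP and MDAPCa2a 1362 (7.86%) differed, 3.6% with the higher log2 change in VCaP and 4.27% with the lower. KLK3 rose more in VCaP than in LNCaP (difference of log2 changes 3.75 ± 0.74, adjusted p 0.00235), where it was at 1560.5 and 1777 CPM in stripped serum and 3249 and 3553 CPM with androgen. Its log2 change in VCaP was also higher than that in MDAPCa2a (5.19 ± 0.76, adjusted p 0.000211). In MDAPCa2a KLK3 was at 11697 and 7006 CPM in stripped serum and 6772 and 7286 CPM with androgen, with no rise. The other lines thus held more KLK3 without androgen than VCaP, and in LNCaP and MDAPCa2a the androgen libraries were near or above the level of the higher VCaP androgen library. AMACR and ODC1 had higher log2 changes in VCaP than in LNCaP (4.44 ± 0.40, adjusted p 2.23e-07, and 2.90 ± 0.31, adjusted p 3.29e-06) and than in MDAPCa2a (5.21 ± 0.40, adjusted p 3.3e-08, and 3.21 ± 0.31, adjusted p 6.83e-07). NCAPD3 had the same pattern (3.66 ± 0.51, adjusted p 0.000103 against LNCaP and 3.41 ± 0.51, adjusted p 0.000225 against MDAPCa2a). FKBP5 differed from LNCaP by 1.36 ± 0.40, adjusted p 0.0279 and from MDAPCa2a by 3.41 ± 0.41, adjusted p 1.77e-05. For TMPRSS2, HOMER2 and STEAP4 no difference from LNCaP passed (0.63 ± 0.61, adjusted p 0.574, 0.41 ± 0.25, adjusted p 0.319 and 1.98 ± 1.52, adjusted p 0.455), and each differed from MDAPCa2a (3.21 ± 0.62, adjusted p 0.00244, 2.53 ± 0.25, adjusted p 8.89e-07 and 7.15 ± 1.15, adjusted p 0.000454). For KLK2 neither difference passed (-0.88 ± 0.93, adjusted p 0.613, and 1.19 ± 0.93, adjusted p 0.48).

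Among genes that fell, FOLH1 and TP53INP1 fell further in VCaP than in LNCaP (-2.39 ± 0.54, adjusted p 0.00585, and -1.47 ± 0.33, adjusted p 0.00536) and than in MDAPCa2a (-2.92 ± 0.55, adjusted p 0.00178, and -1.40 ± 0.33, adjusted p 0.00941). GRB10 did not differ from LNCaP past the threshold (-0.38 ± 0.43, adjusted p 0.641), where it was at 310.1 and 399 CPM in stripped serum and 52.7 and 106 CPM with androgen, and differed from MDAPCa2a (-2.80 ± 0.44, adjusted p 0.000339). The mitotic genes CDC20 and PLK1 differed between VCaP and LNCaP (3.82 ± 0.74, adjusted p 0.00206, and 3.65 ± 0.74, adjusted p 0.00292). In LNCaP CDC20 was at 53.2 and 55.1 CPM in stripped serum and 10.2 and 29.9 CPM with androgen, lower in both androgen libraries, a change that did not pass there. Against MDAPCa2a neither passed (1.66 ± 0.75, adjusted p 0.182, and 1.36 ± 0.75, adjusted p 0.284). HIST1H1C differed from MDAPCa2a (2.82 ± 0.50, adjusted p 0.00119) and not past the threshold from LNCaP (1.37 ± 0.48, adjusted p 0.0652).

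**Figure D5:**
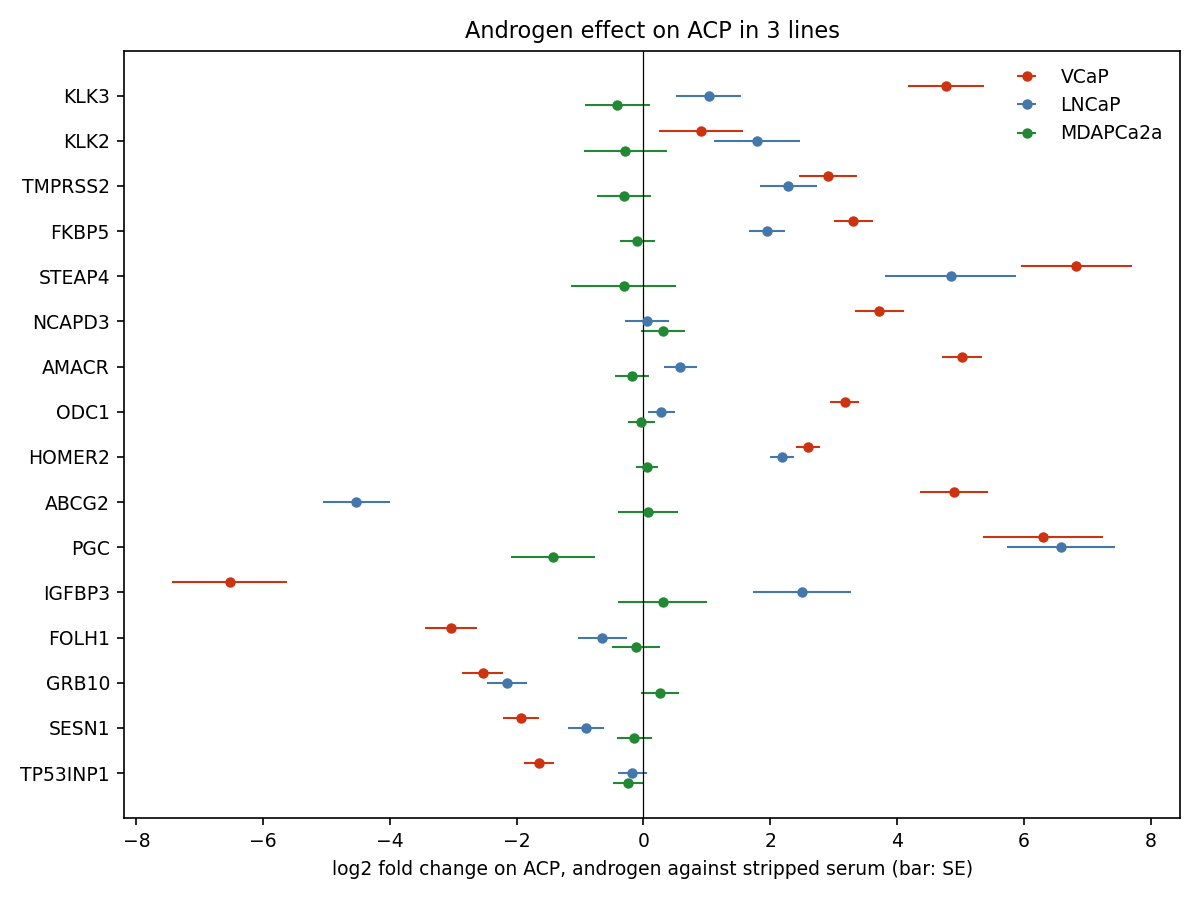
Log2 fold change of androgen against stripped serum on ACP for 16 transcripts in VCaP (red), LNCaP (blue) and MDAPCa2a (green), with bars for the standard error, from the fit of all 34 libraries (2 libraries a group). AMACR, ODC1 and NCAPD3 are raised in VCaP and lie near 0 in both other lines, and ABCG2 and IGFBP3 lie on opposite sides of 0 in VCaP and LNCaP.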

How the data were processed

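Poly(A)-selected RNA of cultured prostate lines was sequenced, and the authors deposited whole-number read counts per gene symbol with no normalization (the tools STAR and HTSeq and the build hg19 are named per the submitters' processing notes, without versions, and whether counting used strand is not given in the sources used here). Groups were taken from the labels. The 9 VCaP libraries, in 5 groups, entered 1 fit in edgeR 4.0.16 (R 4.3.3, limma 3.58.1) with TMM scaling, genes kept by filterByExpr with a minimum count of 10, and the quasi-likelihood F test with Benjamini-Hochberg adjustment at 0.05. A standard error is the absolute log2 fold change over the root of its F statistic. CPM values use the TMM library sizes of the fit they come from. Differences between lines were fitted over all 34 libraries. The scripts were tested on simulated counts in which only 200 genes changed between the 2 compared groups. At a log2 change of 1, 3 of the 200 (1.5%) passed, with a median fitted size of 1.6 and 0 false calls. At a log2 change of 2, 165 of 200 (82.5%) passed, with 12 false calls. In the data 2727 genes passed, far more than the 200 changed here, so the adjusted cutoff was less strict there. The simulated rates therefore do not carry over to the data. A gene that did not pass can still have changed by about 2-fold, at a rate the simulation does not give.

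Named genes were a fixed set of androgen targets, the 10 largest rises and falls of genes at 5 CPM or more without overlap between groups, up to 3 rises and 3 falls in each of 36 gene lists (members with a mean of at least 5 CPM), and the 3 largest differences each way between lines. Further list members are given by value. The members and lists were chosen with earlier results of these data known, and some genes that the rule names are not reported here although the counts include them. Same-numbered libraries of both groups did not deviate together (correlation -0.148), so the numbers were not taken as pairs. Alternatives were DESeq2 1.42.0, RLE scaling, no filter, a replicate block, other sets of libraries in the fit, and leaving out each library. In GENCODE v29, 33 of 121 named genes share exon bases with another gene, and their reads could be split or shared in counting, as could those of near-identical copies. Intervals on read ratios are exact at 95%, limits for 0 reads rest on 3 reads over the group, and both cover counting error only.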

Additional observations from a re-analysis of the deposited data

Results flagged for a closer look

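The largest differences between the androgen effect in VCaP and that in another line, tested as a difference of both effects in edgeR's fit of all 34 libraries, are given with the CPM of each library and without explanation. Several rest on a group with 0 reads in both libraries, where the fitted size depends on the prior count.

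ABCG2, a drug efflux transporter, differed most upward from LNCaP, by 9.43 ± 0.75, adjusted p 5.83e-08. It was at 0.878 and 0.574 CPM in stripped serum and 15.9 and 27.4 CPM with androgen in VCaP, and at 14 and 21.2 CPM in stripped serum and 0.829 and 0.686 CPM with androgen in LNCaP, so it was higher in both androgen libraries of VCaP and lower in both of LNCaP. SLC5A1 differed from LNCaP by 8.79 ± 0.87, adjusted p 1.26e-06 and from MDAPCa2a by 7.65 ± 0.90, adjusted p 1.56e-05, at 2.13 and 1.44 CPM in stripped serum and 1.14 and 1.01 CPM with androgen in LNCaP and at 0.954 and 1.45 CPM in stripped serum and 2.12 and 1.11 CPM with androgen in MDAPCa2a. SEMA3G, a secreted semaphorin, differed by 8.58 ± 1.37, adjusted p 0.000461 from LNCaP and by 8.65 ± 1.35, adjusted p 0.000381 from MDAPCa2a. It was at 0 and 0 CPM in stripped serum and 2.42 and 1.27 CPM with androgen in VCaP, so it went from 0 reads to a level below that of LNCaP (6.31 and 6.13 CPM in stripped serum and 3.77 and 9.50 CPM with androgen) or MDAPCa2a (30.5 and 30.5 CPM in stripped serum and 27.6 and 34.4 CPM with androgen). PGC differed from MDAPCa2a by 7.72 ± 1.16, adjusted p 0.000264, where it was at 387 and 66.4 CPM in stripped serum and 103 and 65.8 CPM with androgen.

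IGFBP3 differed most downward from LNCaP, by -9.03 ± 1.17, adjusted p 5.39e-05. LNCaP held 4.66 and 6.16 CPM in stripped serum and 46.1 and 14.9 CPM with androgen, above the stripped level in both androgen libraries, while VCaP fell. PDE1B, a cyclic nucleotide phosphodiesterase, differed by -8.73 ± 1.66, adjusted p 0.00257, at 5.66 and 7.58 CPM in stripped serum and 0.606 and 0.219 CPM with androgen in VCaP and 0 and 0 CPM in stripped serum and 0.0691 and 0.163 CPM with androgen in LNCaP. ADAM19, a membrane metalloprotease, differed by -8.55 ± 2.20, adjusted p 0.0157, at 7.90 and 4.59 CPM in stripped serum and 0.130 and 0.263 CPM with androgen in VCaP and 0 and 0 CPM in stripped serum and 0 and 0.0979 CPM with androgen in LNCaP. Without LNCaP androgen replicate 2, the 1 LNCaP library with reads, the difference of ADAM19 was -4.96 with an adjusted p of 1. From MDAPCa2a, NAALAD2 differed by -8.20 ± 1.44, adjusted p 0.00103, where it was at 0.127 and 0.0581 CPM in stripped serum and 0.459 and 0.505 CPM with androgen. SEZ6, a neuronal membrane protein, differed by -8.12 ± 2.36, adjusted p 0.0343, at 28.0 and 75.1 CPM in stripped serum and 7.44 and 3.85 CPM with androgen in VCaP and 0 and 0 CPM in stripped serum and 0.115 and 0.152 CPM with androgen in MDAPCa2a. ACTN2, a muscle actinin, differed by -8.09 ± 1.88, adjusted p 0.00981, at 7.80 and 5.08 CPM in stripped serum and 0.606 and 1.10 CPM with androgen in VCaP and 0 and 0 CPM in stripped serum and 0.0573 and 0.253 CPM with androgen in MDAPCa2a. The call of ACTN2 was lost without MDAPCa2a androgen replicate 2 (adjusted p 0.229). That of SEZ6 was lost without VCaP androgen replicate 2 (adjusted p 0.0679) or without any 1 of the 4 MDAPCa2a libraries (highest adjusted p 0.182).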

How the results depend on the processing

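The androgen comparison gave 2727 calls, and 2250 to 3597 under RLE scaling, DESeq2, no count filter, the fit of the 4 compared libraries and the fit without the plastic control libraries, each within 1.5 times. The fit of all 34 libraries gave 4545 (2184 that rose and 2361 that fell). Leaving out 1 of the 4 libraries gave 766 to 2318 calls, 420 to 1136 that rose and 346 to 1182 that fell. With the replicate number as a block, which the check of deviations did not support as a pairing, 2630 genes were called (1340 that rose, 1290 that fell). With crossed numbers as the block, an alternative chosen after seeing the data, 3017 were called. The differences from LNCaP numbered 1887 (2176 with the replicate block), and 1013 to 2023 with 1 library left out. Those from MDAPCa2a numbered 1362 (1630 with the replicate block), and 646 to 1685. No named gene changed direction under any alternative run. Calls of KLK2, ELK3, NCOA2, TUSC3 and SMOX rest on every library. The call of ELK3 was also lost under RLE scaling (adjusted p 0.0522), without the filter (0.0595) and with the block (0.0614), that of NCOA2 under RLE scaling (0.052), that of NCOA3 under RLE scaling (0.0584) and the block (0.0649), that of IFI27 under DESeq2 (0.054) and the block (0.0773), and that of KRT14 with the block (0.0561). The block ended no other named call. In the fit of all 34 libraries the calls of KLK2 (0.329), RMRP (0.174), PHGDH (0.166), RPPH1 (0.156), KRT14 (0.128) and SLC7A11 (0.0594) were lost. In the fit of the 4 compared libraries those of ELK3 (0.086), NCOA3 (0.0798), SPRED2 (0.0785), TUSC3 (0.0732), IRF7 (0.0584), KRT14 (0.0561) and KLK2 (0.0542) were lost. The crossed block ended that of IFI27 (0.0803). Each compared group had 2 libraries, and the fit of the 9 VCaP libraries left 4 residual degrees of freedom. VCaP on plastic in stripped serum had only 1 library, which gives no estimate of spread.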
